A study of Homo sapiens with 9 samples.

Results

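The 32 genes described here encode enzymes that make cholesterol and fatty acids, and proteins that control them. They were chosen by gene symbol from the 17529 genes of the deposited expression table, and all 32 were found there. They comprise 18 enzymes of the sterol branch, 7 enzymes of the fatty acid branch, 5 regulators of the SREBP pathway and 2 genes of sterol transport and receptor turnover. RNA was taken 48 h after siRNA transfection from cells labelled NCI-H69, an established human small cell lung cancer line. The 9 libraries form 3 groups of 3, which received an siRNA against CSNK2B (si_CSNK2B), an siRNA against P300 (si_P300) or a negative control siRNA (NC). CSNK2B encodes the regulatory beta subunit of casein kinase CK2, and P300 is the histone acetyltransferase encoded by EP300. All groups share the line, its serum-containing medium and the transfection, and they are called biological replicates in the labels, which do not say whether these were separate cultures. The p-values therefore measure the spread between these libraries, which may be technical.

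Cholesterol is built from acetyl-CoA through the mevalonate pathway, which ends in farnesyl diphosphate, and then through squalene and a series of sterol ring steps. Fatty acid synthesis starts from the same acetyl-CoA, and its product palmitate is elongated and desaturated. Transcription of both branches is driven by the SREBP proteins, which are held in the endoplasmic reticulum by SCAP and INSIG proteins while sterols are plentiful and are cut free when sterols run low. Proliferating tumour cells commonly make both kinds of lipid for new membrane.

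Total expected counts were 17.7 to 18.3 M per library in NC and 13.1 to 17.5 M in the siRNA groups. TMM scaling factors were 0.940 to 0.954 in NC and 1.008 to 1.065 in the siRNA groups. The median SD of log2 CPM over all tested genes was 0.106 in NC, 0.177 in si_CSNK2B and 0.194 in si_P300. All 9 libraries shared 1 model. Depth and spread thus differed between NC and the siRNA groups, and their part in the contrasts with NC was not tested. The targeted transcripts did not pass the test in their own groups: CSNK2B had a log2 fold change of -0.26 ± 0.104 in si_CSNK2B against NC (edgeR adjusted p = 0.0732; -0.34 and 0.0347 without si_CSNK2B replicate 1), and EP300 one of -0.30 ± 0.127 in si_P300 against NC (edgeR adjusted p = 0.101). Each was about as low in the other siRNA group, with -0.22 ± 0.104 for CSNK2B in si_P300 and -0.27 ± 0.127 for EP300 in si_CSNK2B, and -0.04 ± 0.104 and 0.03 ± 0.128 between the siRNAs. Of the exonic bases of CSNK2B, 23.0% are also annotated to another gene on the same strand, so its level is uncertain where reads could be shared. Among 6 neuroendocrine markers of small cell lung cancer, 0 reached 10 CPM in any group (summed 1.05 to 1.62 CPM in si_CSNK2B, 0.896 to 1.59 CPM in si_P300 and 0.832 to 1.19 CPM in NC), and CHGA and NCAM1 were near 0. All 4 epithelial and all 4 measured intestinal epithelial markers reached 10 CPM in every group, so the labelled cell type was not borne out by its markers. Some of these markers differed between groups, such as LGALS4, with means of 33.3 CPM in si_CSNK2B, 35.3 CPM in si_P300 and 134 CPM in NC, and KRT18, with 1361, 1396 and 2214 CPM in the same order, and their part in the results was not tested. Summed hepatocyte and adipocyte markers reached at most 2.38 CPM in a library. Of 4 fibroblast markers, COL1A1 and PDGFRA reached 10 CPM in every group, with means of 17.7 and 39.4 CPM in NC. The epithelial marker CDH1 had 18.8 CPM there. The other fibroblast markers, COL3A1 and DCN, had means of at most 0.472 CPM. These lists therefore do not show a purely epithelial profile, and the source of the fibroblast markers was not tested. The library si_P300 replicate 1 stood apart within its group, with log2 CPM correlations across genes of 0.974 and 0.982 to the other si_P300 libraries, against 0.986 between those. Member values that move most without it are given with and without it. Between si_CSNK2B and si_P300 libraries the correlations were 0.977 to 0.989, beside 0.984 to 0.986 within si_CSNK2B, so this measure did not separate these groups. In bulk RNA, fewer cells of a type and less RNA per cell cannot be told apart.

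Against NC, the genes of both branches moved in both directions after either siRNA. Apart from the low-level gene FADS2, the largest called change was a 1.54-fold lower level of SCD in si_CSNK2B. Higher transcripts were those of 4 sterol enzymes, MVD, FDPS, SQLE and LSS, and of the fatty acid synthase FASN, after either siRNA. Lower transcripts were those of the regulator SREBF2 and the desaturase SCD after either siRNA, although 10 of 21 alternatives kept the SCD call in si_P300. A gene was called at a Benjamini-Hochberg adjusted p under 0.05 in edgeR's quasi-likelihood test over 13129 tested genes, which included all 32 members. In si_CSNK2B, 5 members were called higher and 5 lower, so 10 of 32, where 34.0% of all tested genes were called (16.2% higher and 17.8% lower). In si_P300, 6 were called higher and 3 lower, so 9 of 32, where 28.3% of all tested genes were called (13.6% higher and 14.7% lower). Both shares are near the background, so their number does not set these genes apart. Both comparisons use the same NC libraries, and the calls in one are therefore not independent of those in the other. Of the 32, 12 were called in at least 1 comparison and 20 in neither.

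**Figure D1:**
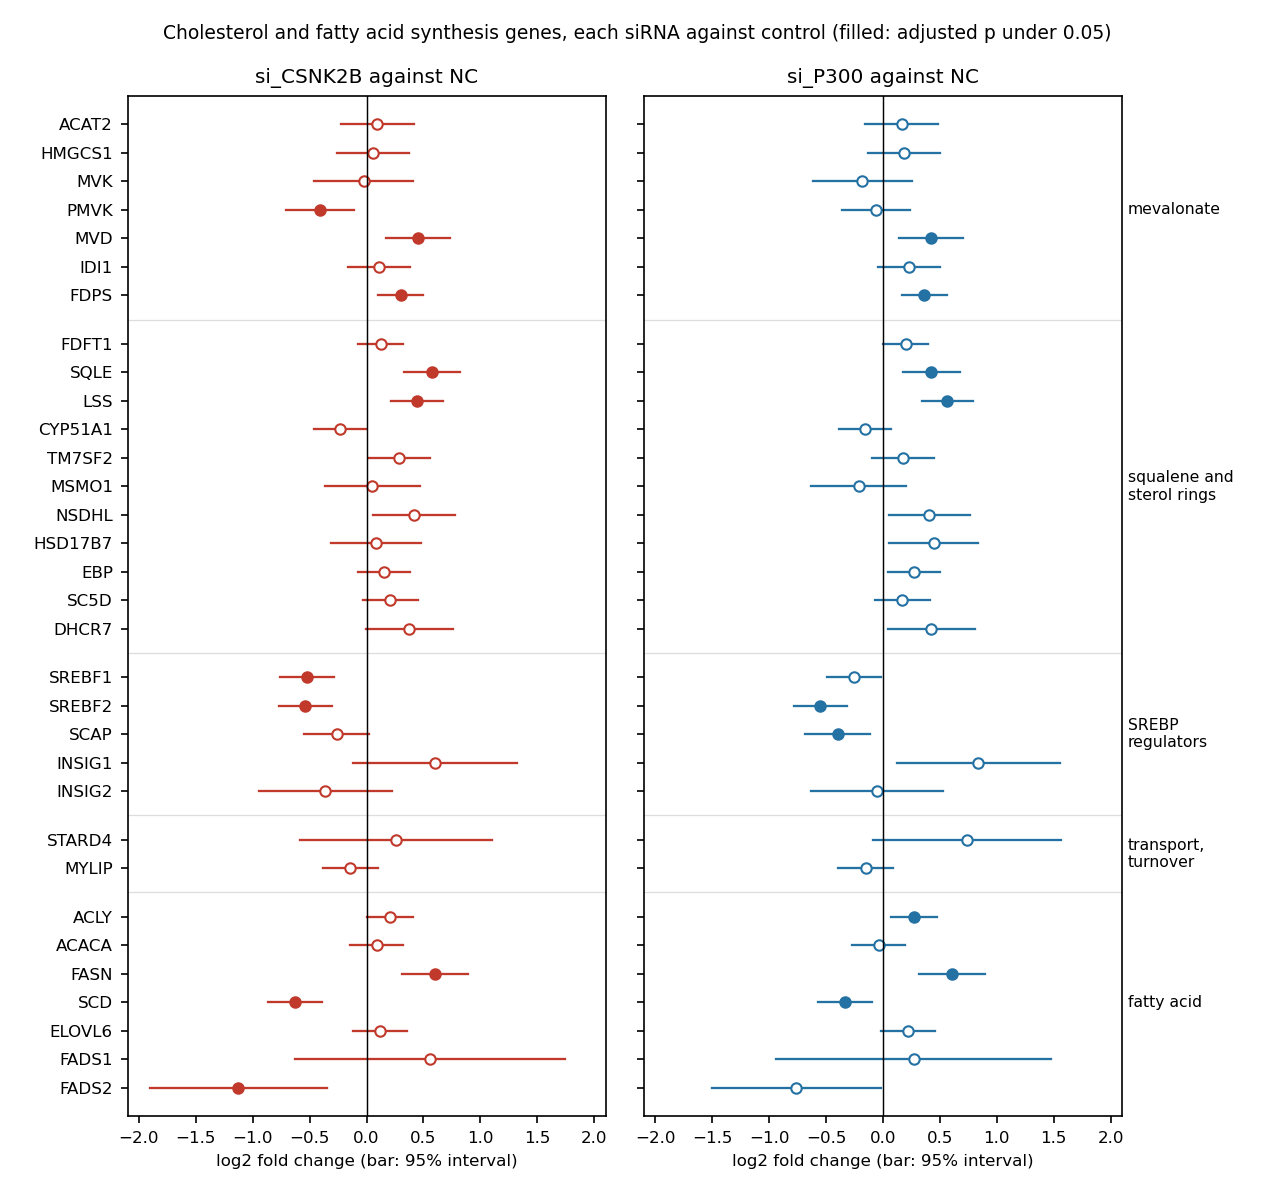
Log2 fold change of each of the 32 members against NC (points) with its 95% interval (bars), for si_CSNK2B on the left and si_P300 on the right, with genes ordered by role; filled points passed an adjusted p of 0.05. Filled points lie on both sides of 0 in both panels, with 5 higher and 5 lower in si_CSNK2B and 6 higher and 3 lower in si_P300.

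The 7 mevalonate enzymes had a median log2 fold change of 0.09 in si_CSNK2B and 0.18 in si_P300, beside medians over all tested genes of 0.04 and 0.04. MVD, the decarboxylase that makes isopentenyl diphosphate (gene ID 4597, chromosome 16, 88651935 to 88663161, minus strand in GRCh38), had 21.3, 26.4 and 23.8 CPM in si_CSNK2B replicates 1 to 3, 25.2, 24.2 and 20.4 CPM in si_P300 replicates 1 to 3 and 17.7, 18.1 and 16.4 CPM in NC replicates 1 to 3. CPM here are read counts over the TMM-adjusted library size, and each gene is given in this library order. All 6 siRNA libraries lay above all 3 NC libraries for MVD. MVD was higher by 36.8% (95% interval 12.6% to 66.3%) in si_CSNK2B (log2 fold change 0.45 ± 0.129, edgeR adjusted p = 0.0182) and by 33.7% (95% interval 10.1% to 62.4%) in si_P300 (0.42 ± 0.129, edgeR adjusted p = 0.0305). The call was lost in si_CSNK2B without NC replicate 1 or 3 or si_CSNK2B replicate 2 (log2 fold change 0.37 to 0.46, edgeR adjusted p = 0.0550 to 0.0788). In si_P300 it was lost when any NC library, si_P300 replicate 1 or si_P300 replicate 2 was left out (0.36 to 0.43, edgeR adjusted p = 0.0648 to 0.119).

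FDPS, the synthase of farnesyl diphosphate (gene ID 2224, chromosome 1, 155308748 to 155320666, plus strand), was the most abundant sterol enzyme in all 3 groups per transcript length. Its libraries read 149, 131 and 142 CPM in si_CSNK2B, 148, 143 and 150.1 CPM in si_P300 and 111, 114 and 118 CPM in NC. Here too the siRNA libraries did not overlap NC. FDPS rose by 23.1% (95% interval 7.13% to 41.4%) in si_CSNK2B (log2 fold change 0.30 ± 0.0917, edgeR adjusted p = 0.0254) and by 28.6% (95% interval 12% to 47.8%) in si_P300 (0.36 ± 0.0917, edgeR adjusted p = 0.0123). When any NC library, si_CSNK2B replicate 1 or si_CSNK2B replicate 3 was left out, the si_CSNK2B call was lost (0.26 to 0.32, edgeR adjusted p = 0.0572 to 0.108), and without NC replicate 1 or 2 the si_P300 call was (0.34 and 0.34, edgeR adjusted p = 0.0665 and 0.0614). With no filter on low counts the si_CSNK2B value did not pass (0.29, edgeR adjusted p = 0.0579). GENCODE 29 names 8 FDPS pseudogenes, and an antisense gene covers 18.6% of the FDPS exons, so its level is uncertain where reads could be shared.

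PMVK, phosphomevalonate kinase (gene ID 10654, chromosome 1, 154924734 to 154936991, minus strand), went the other way in si_CSNK2B. It had 20.3, 22 and 17.7 CPM in si_CSNK2B, 25.1, 28.2 and 23.0 CPM in si_P300 and 26.9, 23.1 and 29.8 CPM in NC. The si_CSNK2B libraries all lay under the NC libraries, while si_P300 overlapped NC. PMVK fell in si_CSNK2B (-24.7% (95% interval -38.8% to -7.41%), log2 fold change -0.41 ± 0.137, edgeR adjusted p = 0.0369). Without NC replicate 1 or 3, or si_CSNK2B replicate 1 or 3, that call was lost (log2 fold change -0.42 to -0.32, edgeR adjusted p = 0.0690 to 0.157), and likewise with library size scaling (-0.29, edgeR adjusted p = 0.108) and on log2 FPKM (-0.27, limma adjusted p = 0.0821). In si_P300 its log2 fold change was -0.06 ± 0.136 (edgeR adjusted p = 0.762).

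The other mevalonate enzymes did not pass in either comparison. HMGCS1, which makes HMG-CoA, had log2 fold changes of 0.06 ± 0.146 in si_CSNK2B and 0.18 ± 0.145 in si_P300, and 0.00 in si_P300 without si_P300 replicate 1. ACAT2, the cytosolic acetoacetyl-CoA thiolase, had 0.09 ± 0.147 and 0.16 ± 0.147 in the same order, and it shares exonic sequence with SOD2-OT1, SOD2 and TCP1 on the other strand. Mevalonate kinase, MVK, was at -0.02 ± 0.199 and -0.18 ± 0.199, and the isomerase IDI1 at 0.11 ± 0.125 and 0.23 ± 0.125. All 3 si_P300 libraries of IDI1 (55.2, 43.7 and 43.4 CPM) exceeded NC (37.6, 41.5 and 42.0 CPM), by a small margin, and without si_P300 replicate 1 its si_P300 value was 0.11.

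The 11 enzymes that turn farnesyl diphosphate into squalene and close and trim the sterol rings had median log2 fold changes of 0.21 in si_CSNK2B and 0.27 in si_P300, with positive values for 10 and 9 of the 11. Of these, 2 were called higher and 0 lower in each comparison, where 16.2% (si_CSNK2B) and 13.6% (si_P300) of all tested genes were called higher. SQLE, squalene epoxidase (gene ID 6713, chromosome 8, 124998497 to 125022283, plus strand), had 88.1, 72.5 and 77.9 CPM in si_CSNK2B, 63.0, 75.4 and 76.7 CPM in si_P300 and 50.7, 52.8 and 56.7 CPM in NC. The 3 NC libraries were the lowest of the 9. SQLE rose by 48.9% (95% interval 25.3% to 76.9%) in si_CSNK2B (log2 fold change 0.57 ± 0.114, edgeR adjusted p = 0.00261) and by 34.2% (95% interval 12.9% to 59.4%) in si_P300 (0.42 ± 0.114, edgeR adjusted p = 0.0166). Its si_P300 call was lost without NC replicate 1 or 2 or si_P300 replicate 3 (0.37 to 0.39, edgeR adjusted p = 0.0660 to 0.0794).

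LSS, lanosterol synthase, which closes the rings (gene ID 4047, chromosome 21, 46188141 to 46228824, minus strand), had 52.1, 54.4 and 58.5 CPM in si_CSNK2B, 55.3, 58.4 and 66.0 CPM in si_P300 and 39.6, 39.1 and 42.7 CPM in NC. The lowest siRNA library stood above the highest NC library. LSS rose by 35.8% (95% interval 16.1% to 58.9%) in si_CSNK2B (log2 fold change 0.44 ± 0.104, edgeR adjusted p = 0.00682) and by 48.0% (95% interval 26.5% to 73.1%) in si_P300 (0.57 ± 0.104, edgeR adjusted p = 0.00218). LSS was called in both comparisons under each of 21 alternatives, and SQLE was in si_CSNK2B.

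Further down the ring pathway, several enzymes had positive values that did not pass. NSDHL, a sterol dehydrogenase, had 25.1, 22.8 and 21.8 CPM in si_CSNK2B, 17.0, 26.8 and 25.6 CPM in si_P300 and 18.4, 15.8 and 18 CPM in NC. Only si_P300 replicate 1 fell among the NC libraries. Its log2 fold change was 0.42 ± 0.164 in si_CSNK2B (edgeR adjusted p = 0.0685) and 0.41 ± 0.164 in si_P300 (edgeR adjusted p = 0.0832). DHCR7, a reductase of the last steps to cholesterol, had 41.3, 37.8 and 31.4 CPM in si_CSNK2B, 28.0, 48.1 and 38.5 CPM in si_P300 and 29.5, 26.9 and 28.8 CPM in NC, again with si_P300 replicate 1 among the NC libraries. Its log2 fold change was 0.38 ± 0.174 in si_CSNK2B (edgeR adjusted p = 0.114) and 0.43 ± 0.174 in si_P300 (edgeR adjusted p = 0.0881). Without si_P300 replicate 1, both genes passed in both comparisons. NSDHL was then at 0.42 in si_CSNK2B (edgeR adjusted p = 0.0131) and 0.59 in si_P300 (edgeR adjusted p = 0.00452), and DHCR7 at 0.38 (edgeR adjusted p = 0.0336) and 0.61 (edgeR adjusted p = 0.00656).

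TM7SF2, a sterol reductase, stood at 0.29 ± 0.124 in si_CSNK2B and 0.18 ± 0.124 in si_P300. Its si_CSNK2B value passed under 8 of 21 alternatives, such as without si_P300 replicate 1 or 2 (0.29 and 0.29, edgeR adjusted p = 0.0470 and 0.0411). The sterol isomerase EBP stood at 0.15 ± 0.105 and 0.27 ± 0.104. Its si_P300 value passed under 8 of 21 alternatives, such as without si_CSNK2B replicate 1 (0.27, edgeR adjusted p = 0.0460). The ketoreductase HSD17B7, which has 2 named pseudogenes, was at 0.08 ± 0.182 and 0.44 ± 0.180. Squalene synthase, FDFT1, was at 0.12 ± 0.0903 and 0.20 ± 0.0902, and the desaturase SC5D at 0.21 ± 0.111 and 0.17 ± 0.111. Both values were negative for CYP51A1, lanosterol demethylase, with -0.23 ± 0.105 in si_CSNK2B and -0.15 ± 0.105 in si_P300, and 79.4% of its exonic bases are also annotated to another gene on the same strand. MSMO1, a methylsterol oxidase, was at 0.05 ± 0.191 and -0.21 ± 0.192. Its si_P300 libraries read 30.4, 55.8 and 57.0 CPM, with replicate 1 far under the other two, while si_CSNK2B read 58.2, 61.9 and 51.3 CPM and NC 56.0, 54.5 and 55.2 CPM. Without si_P300 replicate 1 the si_P300 value of MSMO1 was 0.03. Over the 18 sterol branch enzymes, 4 were called higher and 1 lower in si_CSNK2B, and 4 higher and 0 lower in si_P300. These are 27.8% and 22.2% of the branch, beside 34.0% and 28.3% of all tested genes.

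**Figure D2:**
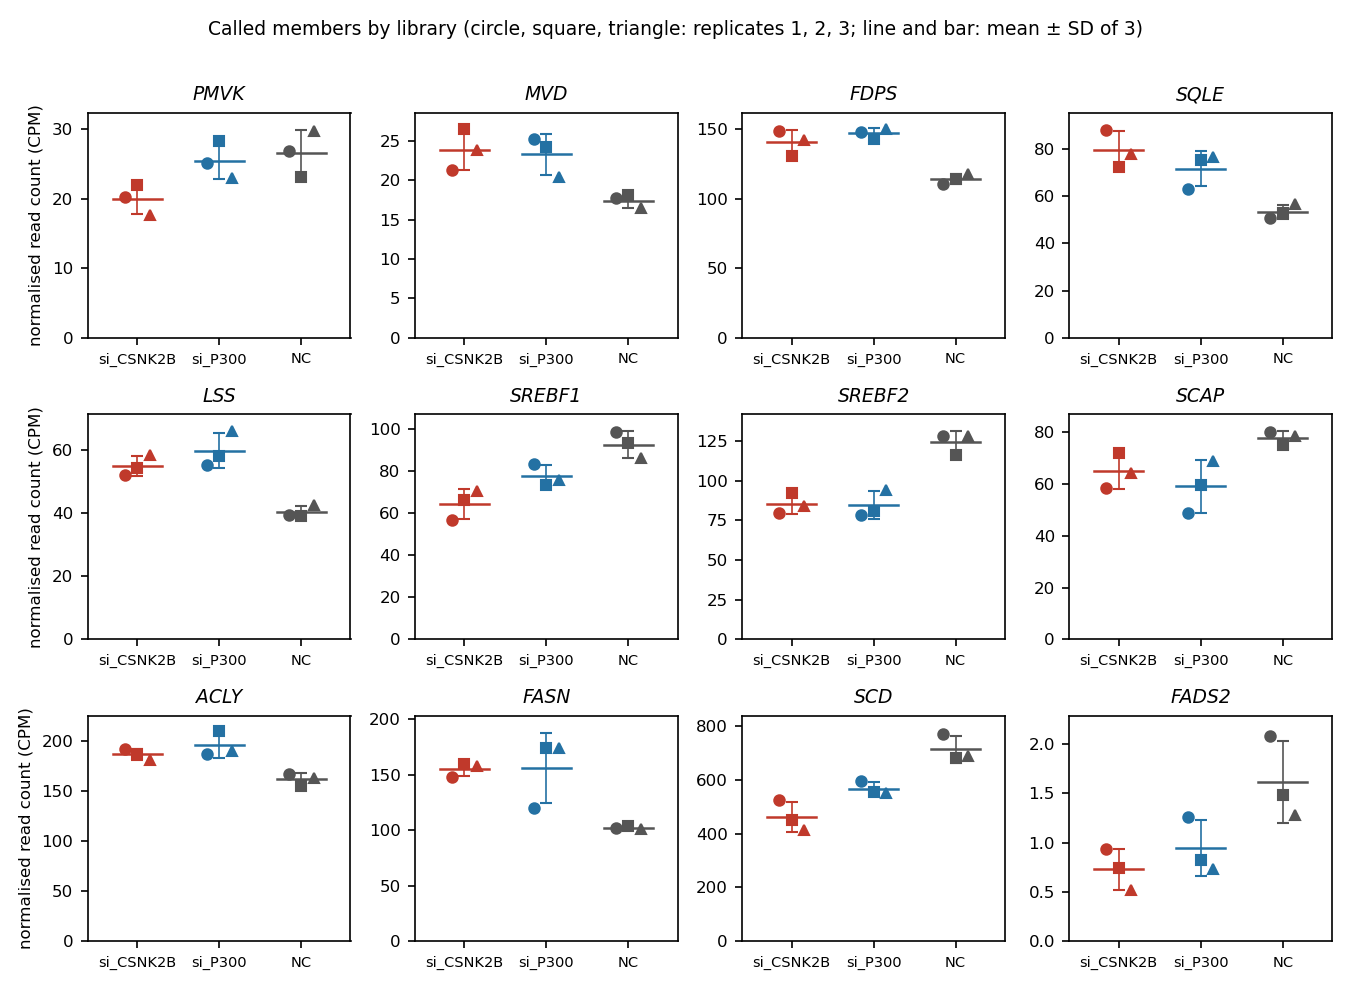
Normalised read counts (CPM) in each library of the 12 members called in at least 1 comparison, for si_CSNK2B, si_P300 and NC (lines and bars: mean ± SD of 3 libraries). NC lies lowest for MVD, FDPS, SQLE, LSS, FASN and ACLY and highest for SREBF1, SREBF2, SCAP, SCD and FADS2, while si_P300 overlaps NC for PMVK.

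The called regulators were all lower, while the called enzymes went both ways. SREBF2, which encodes SREBP-2, the factor best known for driving cholesterol genes (gene ID 6721, chromosome 22, 41833079 to 41907308, plus strand), had 79.8, 92.3 and 84.1 CPM in si_CSNK2B, 78.4, 81.0 and 94.3 CPM in si_P300 and 128, 116 and 128 CPM in NC. No siRNA library reached the lowest NC library. The change was -31.2% (95% interval -41.4% to -19.1%) in si_CSNK2B (log2 fold change -0.54 ± 0.107, edgeR adjusted p = 0.00256) and -31.8% (95% interval -42.0% to -19.9%) in si_P300 (-0.55 ± 0.107, edgeR adjusted p = 0.00291). SREBF2 was called lower in both comparisons under each of 21 alternatives.

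SREBF1 encodes SREBP-1, whose forms are best known for driving fatty acid genes (gene ID 6720, chromosome 17, 17810399 to 17837002, minus strand). It had 56.6, 66.5 and 70.4 CPM in si_CSNK2B, 83.5, 73.7 and 75.8 CPM in si_P300 and 98.6, 93.3 and 86.2 CPM in NC. The groups were ordered with si_CSNK2B lowest and NC highest, without overlap between any pair. SREBF1 fell in si_CSNK2B (-30.4% (95% interval -41.1% to -17.8%), log2 fold change -0.52 ± 0.110, edgeR adjusted p = 0.00361), a call kept under each of 21 alternatives, and had -0.25 ± 0.110 in si_P300 (edgeR adjusted p = 0.103). The table gives 1 value per gene, so the SREBF1 isoforms were not separated here.

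SCAP, the escort that carries SREBPs to the Golgi (gene ID 22937, chromosome 3, 47413694 to 47477126, minus strand), had 58.4, 72.0 and 64.0 CPM in si_CSNK2B, 48.6, 59.6 and 68.8 CPM in si_P300 and 79.8, 74.7 and 78.3 CPM in NC. All siRNA libraries were under NC, with si_P300 replicate 1 the lowest. Its log2 fold change was -0.26 ± 0.130 in si_CSNK2B (edgeR adjusted p = 0.140) and -0.40 ± 0.131 in si_P300, where it passed (edgeR adjusted p = 0.0409). That call was lost on leaving out any NC library, si_CSNK2B replicate 3, or si_P300 replicate 1 or 2 (-0.45 to -0.27, edgeR adjusted p = 0.0506 to 0.122), and without si_P300 replicate 1 the value was -0.27. It was also lost with library size scaling, on log2 TPM and on log2 FPKM (-0.33 to -0.27, adjusted p = 0.0851 to 0.124 by edgeR or limma), so that 10 of 21 alternatives kept it.

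INSIG1 and INSIG2, which hold SCAP in the endoplasmic reticulum, varied widely between libraries. INSIG1 had 19.8, 23.8 and 9.17 CPM in si_CSNK2B, 30.5, 15 and 16.5 CPM in si_P300 and 10.5, 10.8 and 13.4 CPM in NC. The si_CSNK2B replicate 3 lay under every NC library, and si_P300 replicate 1 was the highest of all 9. Its log2 fold changes of 0.60 ± 0.330 in si_CSNK2B and 0.84 ± 0.328 in si_P300 did not pass (edgeR adjusted p = 0.180 and 0.0764). Without si_CSNK2B replicate 3 they were 0.91 and 0.84 and both passed (edgeR adjusted p = 0.0341 and 0.0304), and without si_P300 replicate 2 the si_P300 value was 1.02 (edgeR adjusted p = 0.0430). Without si_CSNK2B replicate 2 the si_CSNK2B value was 0.32 (edgeR adjusted p = 0.516), and without si_P300 replicate 1 the si_P300 value was 0.44 (edgeR adjusted p = 0.280).

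INSIG2 had 53.7, 64.3 and 55.4 CPM in si_CSNK2B, 114, 45.0 and 55.9 CPM in si_P300 and 82.9, 76.7 and 63.3 CPM in NC. Its si_P300 replicate 1 was the highest of the 9 libraries and the other si_P300 libraries were under NC. With all libraries its log2 fold change was -0.36 ± 0.268 in si_CSNK2B (edgeR adjusted p = 0.315) and -0.05 ± 0.266 in si_P300 (edgeR adjusted p = 0.900). Without si_P300 replicate 1 it was -0.36 in si_CSNK2B and -0.56 in si_P300, and both passed (edgeR adjusted p = 0.0385 and 0.0122). Of the 5 regulators, 2 were called lower and 0 higher in each comparison. Over all tested genes, 17.8% were called lower in si_CSNK2B and 14.7% in si_P300.

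Neither gene of sterol transport and receptor turnover passed. STARD4, a cytosolic cholesterol carrier, had 6.82, 5.94 and 8.21 CPM in si_CSNK2B, 16.9, 5.51 and 6.66 CPM in si_P300 and 5.29, 8.06 and 4.19 CPM in NC, with si_P300 replicate 1 above all others. Its log2 fold changes were 0.26 ± 0.386 in si_CSNK2B and 0.74 ± 0.379 in si_P300, and the si_P300 value was 0.06 without replicate 1 of si_P300 (edgeR adjusted p = 0.886). MYLIP, a ubiquitin ligase for lipoprotein receptors, was at -0.14 ± 0.112 and -0.15 ± 0.112, and its libraries overlapped NC.

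In the fatty acid branch FASN and SCD moved in opposite directions. FASN, which assembles palmitate (gene ID 2194, chromosome 17, 82078333 to 82098332, minus strand), had 148, 159 and 158 CPM in si_CSNK2B, 119.8, 174 and 174 CPM in si_P300 and 102, 103 and 101 CPM in NC. The NC libraries lay within a narrow band under all others, and si_P300 replicate 1 was the closest to them. FASN rose by 51.6% (95% interval 23.8% to 85.7%) in si_CSNK2B (log2 fold change 0.60 ± 0.134, edgeR adjusted p = 0.00511) and by 52.4% (95% interval 24.4% to 86.7%) in si_P300 (0.61 ± 0.134, edgeR adjusted p = 0.00617). Both calls were kept under each of 21 alternatives, and without si_P300 replicate 1 the si_P300 value was 0.77 (edgeR adjusted p = 0.000103).

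SCD, which puts the double bond into stearate and palmitate (gene ID 6319, chromosome 10, 100347124 to 100364834, plus strand), had 525, 449.6 and 415 CPM in si_CSNK2B, 595, 556 and 551 CPM in si_P300 and 773, 683 and 689 CPM in NC. The groups did not overlap, with si_CSNK2B lowest and NC highest. SCD fell in si_CSNK2B (-35.2% (95% interval -45.1% to -23.5%), log2 fold change -0.63 ± 0.109, edgeR adjusted p = 0.00123), a call kept under each of 21 alternatives. In si_P300 the change was -20.6% (95% interval -32.7% to -6.40%) (log2 fold change -0.33 ± 0.109, edgeR adjusted p = 0.0394). The si_P300 call was lost on leaving out any NC library, si_CSNK2B replicate 2, or si_P300 replicate 2 or 3 (-0.39 to -0.28, edgeR adjusted p = 0.0503 to 0.162). It was also lost with library size scaling, on log2 TPM and on log2 FPKM (-0.27 to -0.22, adjusted p = 0.0517 to 0.107 by edgeR or limma). SCD has 1 named pseudogene, so reads could be shared with it.

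ACLY, which splits citrate into the acetyl-CoA used by both branches (gene ID 47, chromosome 17, 41866908 to 41930542, minus strand), had 192, 186 and 181 CPM in si_CSNK2B, 187, 209 and 189.7 CPM in si_P300 and 166, 155 and 163 CPM in NC. Every siRNA library exceeded NC. Its log2 fold change was 0.21 ± 0.0917 in si_CSNK2B (edgeR adjusted p = 0.102) and 0.27 ± 0.0917 in si_P300, where it passed (edgeR adjusted p = 0.0432). That call was lost on leaving out any NC library, si_CSNK2B replicate 2, or si_P300 replicate 2 or 3 (0.22 to 0.29, edgeR adjusted p = 0.0519 to 0.192), and also with RLE scaling (0.26, edgeR adjusted p = 0.0564) or no filter (0.25, edgeR adjusted p = 0.111).

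ACACA, the carboxylase that makes malonyl-CoA, was at 0.09 ± 0.108 in si_CSNK2B and -0.04 ± 0.108 in si_P300, where it was 0.05 without si_P300 replicate 1. The elongase ELOVL6 was at 0.12 ± 0.108 and 0.22 ± 0.108. The polyunsaturated fatty acid desaturases FADS1 and FADS2 were near the limit of detection, where 3 counts correspond to 0.165 to 0.223 CPM by library. FADS2 (gene ID 9415, chromosome 11, 61792980 to 61867354, plus strand) had 0.933, 0.743 and 0.517 CPM in si_CSNK2B, 1.26, 0.827 and 0.734 CPM in si_P300 and 2.08, 1.48 and 1.28 CPM in NC. Its siRNA libraries lay under NC, and its log2 fold change was -1.13 ± 0.356 in si_CSNK2B (edgeR adjusted p = 0.0290) and -0.76 ± 0.341 in si_P300 (edgeR adjusted p = 0.116). The si_CSNK2B call was lost without NC replicate 1 or 2, or si_CSNK2B replicate 2 or 3 (-1.20 to -0.91, edgeR adjusted p = 0.0549 to 0.128), and with DESeq2 (-1.15, adjusted p = 0.0506). FADS1 was at 0.55 ± 0.543 and 0.27 ± 0.554, and both desaturases share 490 exonic bases on opposite strands, so their reads cannot be told apart there if strand was not used. Of the 7 fatty acid genes, 1 was called higher and 2 lower in si_CSNK2B, and 2 higher and 1 lower in si_P300. Over all tested genes, 34.0% and 28.3% were called in the same order.

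Levels of different genes were compared as the authors' TPM, which are scaled for length. SCD led the members in NC with 242 ± 16.3 TPM, followed by FDPS with 163 ± 4.49 TPM and EBP with 76.0 ± 1.57 TPM (SD, n = 3). FDPS led in si_CSNK2B, with 208 ± 12.8 TPM and 161 ± 14 TPM for SCD. In si_P300 the libraries of both overlapped, with 219 ± 12.4 TPM for FDPS and 200.4 ± 15 TPM for SCD. At the low end of NC stood STARD4 with 2.80 ± 0.959 TPM, FADS2 with 0.953 ± 0.244 TPM and FADS1 with 0.197 ± 0.0666 TPM. Neighbours in the middle of the NC order, such as PMVK with 48.8 ± 5.15, CYP51A1 with 48.8 ± 2.36 and MSMO1 with 46.7 ± 1.04 TPM, did not differ beyond their spread.

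The 18 sterol enzymes summed to 869.7, 826 and 833 TPM in si_CSNK2B, 884, 877 and 881 TPM in si_P300 and 716, 727 and 723 TPM in NC. Both siRNA groups lay above NC, and FDPS, the most abundant of them, contributed most of any single gene. SCD alone made up 53.5% ± 2.69 of the summed TPM of the 7 fatty acid genes in si_CSNK2B, 58.1% ± 3.11 in si_P300 and 68.2% ± 1.19 in NC (SD, n = 3). The other 6 fatty acid genes summed to 139.6 ± 3.22 TPM in si_CSNK2B, 144.5 ± 7.84 TPM in si_P300 and 112.5 ± 1.40 TPM in NC. As a ratio of TPM, SCD over FASN was 5.74, 4.58 and 4.26 in si_CSNK2B, 8.05, 5.17 and 5.14 in si_P300 and 12.3, 10.7 and 11.1 in NC. The ratio was lower in all 6 siRNA libraries than in any NC library, and si_P300 replicate 1 was the nearest to NC. These sums and ratios were formed with the gene results in view and carry no test.

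**Figure D3:**
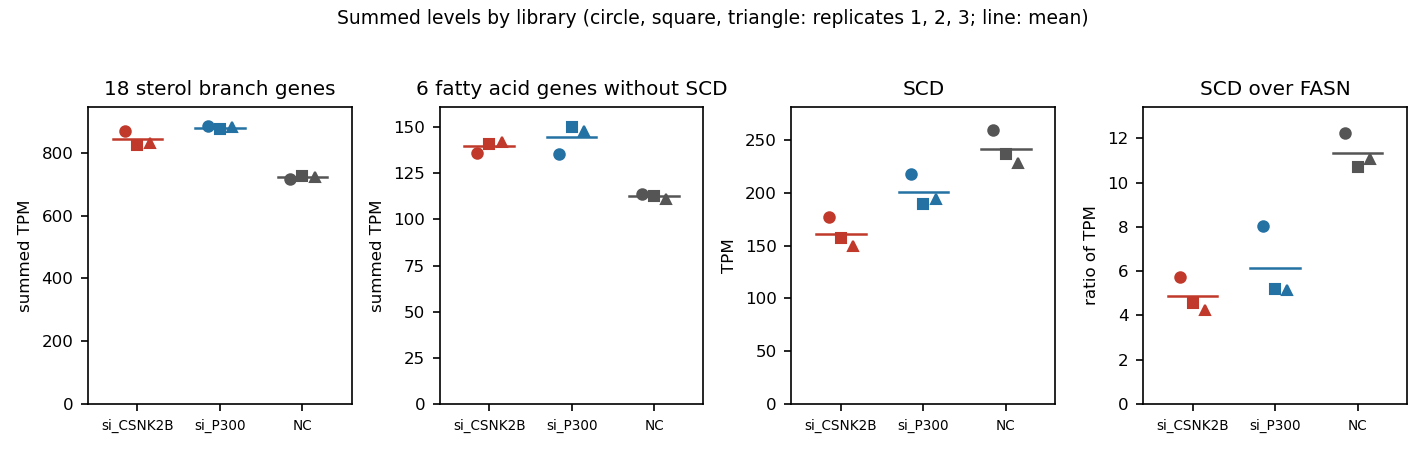
Summed TPM of the 18 sterol branch genes, of the 6 fatty acid genes without SCD, TPM of SCD, and the ratio of SCD to FASN, per library (points) with group means (lines), for si_CSNK2B, si_P300 and NC. Both sums are higher and SCD and the ratio lower in every siRNA library than in any NC library.

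Whole branches were summarised by their medians. The median log2 fold change was 0.14 for the sterol branch and 0.12 for the fatty acid branch in si_CSNK2B, and 0.22 and 0.22 in si_P300. Those of the fatty acid branch join values of opposite sign, -1.13 to 0.60 in si_CSNK2B and -0.76 to 0.61 in si_P300, and the si_P300 median moved with the setting. It was -0.15 without si_P300 replicate 3 and 0.03 without NC replicate 3, with 0.25 and 0.23 for the sterol branch, 0.09 with only the 6 libraries compared (sterol branch 0.21), 0.12 with limma-voom (0.21) and 0.08 on log2 TPM without a filter (0.27). The sterol branch genes spanned -0.41 to 0.57 in si_CSNK2B and -0.21 to 0.57 in si_P300. When counts were scaled by library size with no TMM factor, the median of all genes was 0.16 in si_CSNK2B and 0.15 in si_P300, and 66.0% and 66.0% of calls were higher, against 47.6% and 48.1% with TMM. Relative to the median of all genes, the sterol branch was at 0.10 in si_CSNK2B and 0.18 in si_P300 with library size scaling, and at 0.10 and 0.17 with TMM. On log2 FPKM, 61.5% of calls in si_CSNK2B and 62.4% in si_P300 were higher. Libraries of the siRNA group and NC did not overlap for 19 of 32 members in si_CSNK2B, where 53.0% of all tested genes did not overlap, and for 19 of 32 in si_P300, where 46.5% did not.

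The member values of si_P300 replicate 1 differed from those of si_P300 replicates 2 and 3 in both directions. Relative to the mean log2 CPM of replicates 2 and 3, STARD4 was at 2.75-fold, INSIG2 at 2.26-fold, INSIG1 at 1.93-fold and HMGCS1 at 1.41-fold. MSMO1 was at 0.540-fold, NSDHL at 0.653-fold, DHCR7 at 0.653-fold and FASN at 0.689-fold. FDPS, EBP, FDFT1 and MVK were within 0.981-fold to 1.04-fold. No label marks this library as different, and its part in the si_P300 results beyond the values without it was not tested.

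**Figure D4:**
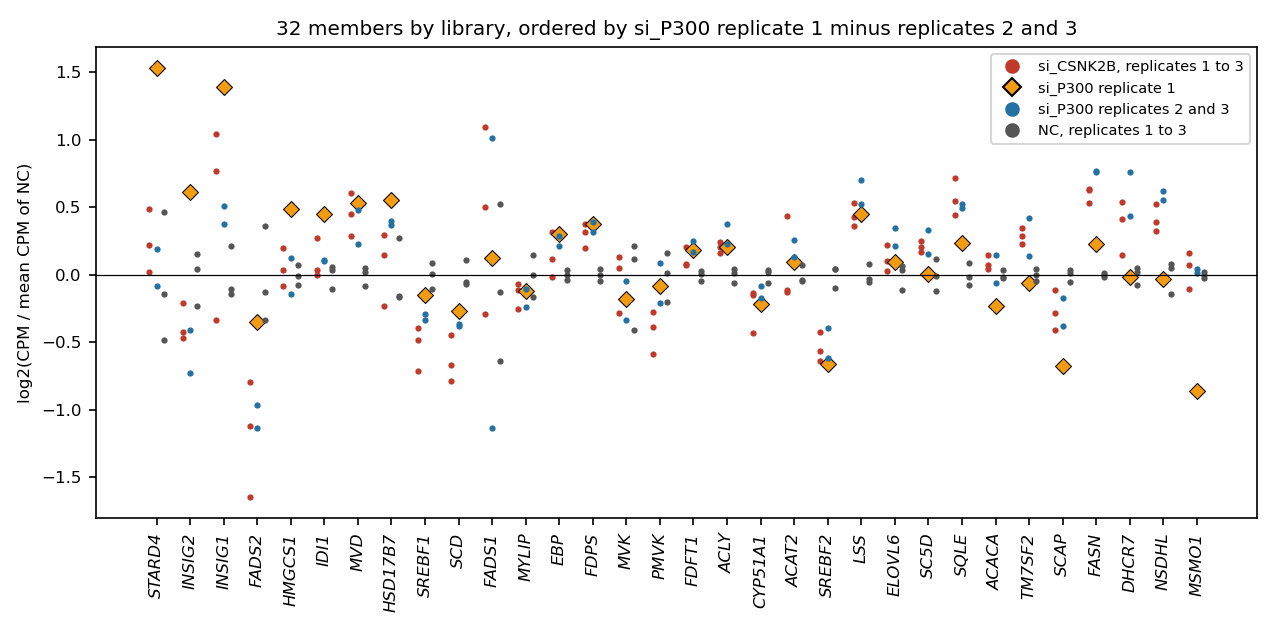
Log2 CPM of the 32 members in each library relative to the mean of NC (vertical axis), ordered along the horizontal axis by the difference between si_P300 replicate 1 (diamonds) and si_P300 replicates 2 and 3. The diamonds lie above the other si_P300 libraries at the left, for STARD4, INSIG2 and INSIG1, and under them at the right, for FASN, DHCR7, NSDHL and MSMO1.

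Set directly against each other, si_CSNK2B and si_P300 gave 0 called members of 32, where 0.00% of all tested genes were called by edgeR. DESeq2 called 8 genes. Of 13129 genes, 661 had an unadjusted edgeR p under 0.05, about as many as that threshold passes when no gene differs. SCD was lower in every si_CSNK2B library than in any si_P300 library, with a log2 fold change of -0.29 ± 0.109 (95% interval -0.53 to -0.05, edgeR adjusted p = 0.946). SREBF1 likewise did not overlap, at -0.27 ± 0.110 (95% interval -0.51 to -0.03, edgeR adjusted p = 0.946), and nor did PMVK, at -0.35 ± 0.137 (95% interval -0.65 to -0.05, edgeR adjusted p = 0.946), or HSD17B7, at -0.36 ± 0.180 (95% interval -0.75 to 0.03, edgeR adjusted p = 0.946). These 4 of 32 members did not overlap in this contrast, where 7.14% of all tested genes did not. The intervals of SREBF2 (-0.22 to 0.25) and FASN (-0.30 to 0.28) still allow differences of either sign.

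Promoter sequences are shown for MVD, FDPS and LSS, sterol enzymes that were higher after both siRNAs, and for SCD and SREBF2, which were lower. The windows run from 250 bases before to 50 bases after the annotated start, 5′ to 3′ on the gene's strand, from RefSeq in GRCh38.p14, and 28 of the 32 members had one (not FDFT1, SQLE, ACAT2 or FASN). Capitals mark the sterol regulatory element TCACNCCAC, to which SREBPs bind, and the box CCAAT, to which NF-Y binds, on either strand.
MVD (chr16:88663042-88663341, minus strand): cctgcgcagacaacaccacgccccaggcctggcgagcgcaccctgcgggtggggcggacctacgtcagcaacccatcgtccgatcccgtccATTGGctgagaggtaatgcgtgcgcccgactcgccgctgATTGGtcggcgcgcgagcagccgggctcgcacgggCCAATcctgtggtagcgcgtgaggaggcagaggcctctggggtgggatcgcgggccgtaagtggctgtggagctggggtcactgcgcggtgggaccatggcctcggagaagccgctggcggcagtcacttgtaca
FDPS (chr1:155308616-155308915, plus strand): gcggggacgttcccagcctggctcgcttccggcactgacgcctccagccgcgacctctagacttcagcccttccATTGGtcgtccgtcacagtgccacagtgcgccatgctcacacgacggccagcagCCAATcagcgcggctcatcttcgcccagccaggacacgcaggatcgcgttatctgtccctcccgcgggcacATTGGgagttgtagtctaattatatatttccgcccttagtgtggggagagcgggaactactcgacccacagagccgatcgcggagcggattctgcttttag
LSS (chr21:46228725-46229024, minus strand): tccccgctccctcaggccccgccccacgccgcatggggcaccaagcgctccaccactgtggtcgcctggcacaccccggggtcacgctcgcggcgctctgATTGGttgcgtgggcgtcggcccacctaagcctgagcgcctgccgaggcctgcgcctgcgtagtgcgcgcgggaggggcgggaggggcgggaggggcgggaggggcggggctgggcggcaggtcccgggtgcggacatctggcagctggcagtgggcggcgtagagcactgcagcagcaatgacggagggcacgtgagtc
SCD (chr10:100346983-100347282, plus strand): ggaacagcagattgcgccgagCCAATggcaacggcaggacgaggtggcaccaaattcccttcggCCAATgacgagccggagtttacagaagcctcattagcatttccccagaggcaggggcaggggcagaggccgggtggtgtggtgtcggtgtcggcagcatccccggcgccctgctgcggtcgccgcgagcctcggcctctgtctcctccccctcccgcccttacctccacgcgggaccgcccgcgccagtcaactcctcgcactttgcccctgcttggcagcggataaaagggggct
SREBF2 (chr22:41832855-41833154, plus strand): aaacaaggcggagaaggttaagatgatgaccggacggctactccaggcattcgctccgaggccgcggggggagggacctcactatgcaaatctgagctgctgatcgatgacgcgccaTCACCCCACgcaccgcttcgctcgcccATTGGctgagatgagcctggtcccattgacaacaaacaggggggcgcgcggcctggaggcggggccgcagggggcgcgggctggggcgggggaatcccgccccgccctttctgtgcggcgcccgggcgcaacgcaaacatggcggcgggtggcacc
MVD and FDPS hold 3 CCAAT boxes each, SCD 2 and LSS 1. SREBF2 holds 1 CCAAT box and the only match to the sterol element among the 28 windows, starting 133 bases before the start. Only the form TCACNCCAC was searched, so the other windows may hold other forms of the element. TCACNCCAC was found in 1.13% of all 35116 promoters of the table, on either strand. CCAAT was found in 18 of the 28 windows (64.3%), of which 12 of 15 in the sterol branch and 2 of 6 in the fatty acid branch, against 34.6% of all promoters and 36.8% of those of tested genes. The GC box GGGCGG was found in 26 of 28 (92.9%), against 45.0% and 68.5%, and in 0 windows did it share bases with a CCAAT match. CACGTG was found in 4 of 28 windows, against 7.26% of all promoters and 9.93% of those of tested genes. TGACGTCA was found in 1 window, that of FADS1, against 1.85% and 3.12%, and TGATGNAAN in 0 windows, against 3.61% and 1.89%. These are letter matches, and no binding was measured.

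Beyond the 32 members, 67 other genes of neighbouring steps were in the table, and 61 were tested. Of these, 7 were called higher and 14 lower in si_CSNK2B, and 10 higher and 11 lower in si_P300, beside 34.0% and 28.3% called over all tested genes. With 1 library left out at a time these counts ran 4 to 9 higher and 10 to 14 lower in si_CSNK2B, and 4 to 11 higher and 6 to 13 lower in si_P300. Among 5 acyl-CoA synthetases, which activate fatty acids, 3 were lower and 0 higher in si_CSNK2B, and 2 lower and 0 higher in si_P300. Over all tested genes, 17.8% and 14.7% were called lower. Their log2 fold changes ran from -1.29 to 1.36 in si_CSNK2B and from -0.93 to 0.72 in si_P300, with 2 and 1 positive values. The calls of ACSL4 in si_CSNK2B and ACSL3 in si_P300 were each kept in 3 of the 9 fits with a library left out. ACSL5 averaged 13.8 ± 2.24 CPM in si_CSNK2B, 17.8 ± 3.68 CPM in si_P300 and 34.0 ± 0.294 CPM in NC (SD, n = 3), with log2 fold changes of -1.29 ± 0.165 (edgeR adjusted p = 0.000151) and -0.93 ± 0.162 (edgeR adjusted p = 0.00158). Of 10 genes of glycerolipid synthesis, 2 were higher and 1 lower in si_CSNK2B, and 3 higher and 1 lower in si_P300. GPAT3, an acyltransferase of its entry step, averaged 10.1 ± 1.92 CPM in si_CSNK2B, 13.1 ± 7.58 CPM in si_P300 and 42.4 ± 1.55 CPM in NC, which gave -2.07 ± 0.306 (edgeR adjusted p = 0.000424) and -1.69 ± 0.298 (edgeR adjusted p = 0.00176). LPIN3, a phosphatidate phosphatase, went up, with 62.9 ± 14.3 CPM in si_CSNK2B, 48.5 ± 3.32 CPM in si_P300 and 23.4 ± 3.40 CPM in NC, or 1.43 ± 0.169 (edgeR adjusted p = 9e-05) and 1.05 ± 0.168 (edgeR adjusted p = 0.000917).

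Among 15 tested genes of acetyl-CoA supply, elongation and desaturation, 3 were higher and 2 lower in each comparison, where 34.0% (si_CSNK2B) and 28.3% (si_P300) of all tested genes were called. With 1 library left out at a time, 1 to 4 were higher and 2 lower in si_CSNK2B, and 2 to 3 higher and 2 to 3 lower in si_P300. ACACB, the carboxylase at the outer mitochondrial membrane, stood at 0.93 ± 0.195 in si_CSNK2B (edgeR adjusted p = 0.00345) and 0.84 ± 0.195 in si_P300 (edgeR adjusted p = 0.00803). MID1IP1, which aids polymerisation of acetyl-CoA carboxylase, was lower, at -0.64 ± 0.114 (edgeR adjusted p = 0.00141) and -0.54 ± 0.114 (edgeR adjusted p = 0.00482). SCD5, the other human stearoyl-CoA desaturase, was called higher in both comparisons. Only its si_P300 value is given here, at 0.72 ± 0.128 (edgeR adjusted p = 0.00190), and it does not stand for si_CSNK2B. FADS3, of the same family as FADS1 and FADS2, fell in both comparisons, at -0.68 ± 0.115 (edgeR adjusted p = 0.000985) and -0.57 ± 0.115 (edgeR adjusted p = 0.00348).

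On the sterol side, 8 other ring enzymes and helpers had 2 higher and 1 lower in each comparison. With 1 library left out at a time, 0 to 3 were higher in si_CSNK2B and 0 to 2 in si_P300, with 1 lower throughout. Those higher, CYB5A and TMEM97, kept each call in 5 of the 9 such fits. Over all tested genes, 16.2% were called higher and 17.8% lower in si_CSNK2B, and 13.6% and 14.7% in si_P300. POR, the reductase that gives electrons to SQLE and CYP51A1, averaged 98.3 ± 18.3 CPM in si_CSNK2B, 120.1 ± 10.3 CPM in si_P300 and 177 ± 6.36 CPM in NC. It fell in both, with log2 fold changes of -0.85 ± 0.130 (edgeR adjusted p = 0.000521) and -0.56 ± 0.129 (edgeR adjusted p = 0.00778). Of 11 genes of isoprenoid side branches, 0 were higher and 4 lower in si_CSNK2B, and 1 higher and 3 lower in si_P300, with 2 to 4 and 1 to 4 lower when 1 library was left out. FNTA, the shared subunit of the enzymes that attach farnesyl and geranylgeranyl groups to proteins, fell to 73.3 ± 6.68 CPM in si_CSNK2B and 78.5 ± 3.57 CPM in si_P300, against 109 ± 3.67 CPM in NC (-0.58 ± 0.0987, edgeR adjusted p = 0.00108, and -0.48 ± 0.0985, edgeR adjusted p = 0.00413). Of 8 genes of SREBP proteolysis and sterol-regulated degradation, 0 were higher and 3 lower in si_CSNK2B, and 1 higher and 2 lower in si_P300, with 2 to 3 and 0 to 3 lower when 1 library was left out. RNF139, a ubiquitin ligase of the endoplasmic reticulum, was at -0.49 ± 0.122 in si_CSNK2B (edgeR adjusted p = 0.00946) and -0.43 ± 0.122 in si_P300 (edgeR adjusted p = 0.0219), and 5 of the 9 fits with a library left out kept its si_P300 call (highest edgeR adjusted p = 0.0831). MBTPS2, the protease that makes the last cut in SREBPs, was at -0.47 ± 0.121 in si_CSNK2B (edgeR adjusted p = 0.0111) and at -0.45 ± 0.121 in si_P300 (edgeR adjusted p = 0.0167). In si_P300 the MBTPS2 call was lost without NC replicate 1 or 3 or si_P300 replicate 3 (highest edgeR adjusted p = 0.0682, with -0.51 to -0.36 over the 9 libraries left out in turn). The calls given for ACSL5, GPAT3, LPIN3, ACACB, MID1IP1, FADS3, POR and FNTA, and that of SCD5 in si_P300, were kept without any 1 library. Of 4 tested genes of the liver X receptors and their targets, 0 were called in either comparison.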

How the data were processed

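RNA-seq was single-end at 50 bp on a BGISEQ instrument, per the labels. The submitters' processing notes name HISAT, Bowtie2 and the build GRCh38.p13, with no versions or roles, and the counting tool, annotation and strand setting are not given in the sources used here. The authors deposited 1 table of 17529 genes. The table holds columns headed as read counts, of which 24.7% to 39.4% of values by library are whole numbers. They were taken here as the authors' expected counts, not scaled between libraries. The TPM and FPKM columns of the table are the authors' length-scaled values, per the file headers, and were used for levels between genes and in alternatives. Another 9 library columns, of normalised read counts, were not used.

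These counts, rounded to whole numbers, went into edgeR 4.0.16 under R 4.3.3 (filterByExpr with a minimum count of 10, TMM, 1 quasi-likelihood model of all 9 libraries, two-sided tests, Benjamini-Hochberg over 13129 genes, threshold 0.05). Each SE was derived from the log2 fold change and its F statistic, with 95% intervals. The pipeline was also run on simulated data, where fewer genes changed than were called here. That run therefore does not measure the accuracy of these calls. The members and gene lists were chosen with earlier results of these data known, and named genes outside the 32 were taken from those with the lowest p in their list. Gene positions and overlaps are from GENCODE 29, and promoters from RefSeq. Alternatives were DESeq2 1.42.0, limma 3.58.1 on TPM and FPKM, other scalings and filters, fewer libraries and a replicate block. The floor of 3 counts and all intervals cover counting and library spread only. Of the listed neuroendocrine markers, 6 are reported here.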

Additional observations from a re-analysis of the deposited data

How the results depend on the processing

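No called member changed sign, in a comparison where it was called, under 21 alternatives, of which 17 tested FADS2. In si_CSNK2B the counts of members higher were 12 with library sizes alone, 12 on log2(FPKM + 1), 8 with only the 6 libraries compared, 8 on log2 TPM at pseudocounts of 1 and 0.1 or without a filter, and 3 at an adjusted p under 0.01. Those lower were 3 on FPKM and 3 at 0.01. In si_P300 those higher were 13 with library sizes alone, 12 on FPKM and 2 at 0.01, and 1 was lower under each of library sizes alone, FPKM, all 3 TPM settings and 0.01. Over all genes, 2525 and 1900 were called at 0.01, and DESeq2 called 8 between the siRNAs. The sterol median was 0.26 and 0.33 with library sizes alone and 0.25 and 0.31 on FPKM, and the fatty acid median in si_CSNK2B 0.25 with library sizes alone. The cause of the FPKM and TPM differences was not tested. DESeq2 put CSNK2B at -0.27 (adjusted p = 0.0451). Some members not called in the main fit passed under alternatives. In si_CSNK2B, NSDHL and TM7SF2 passed under 8 of 21 each, ACLY under 6 and DHCR7 under 4. In si_P300, EBP passed under 8, NSDHL under 6, FDFT1 and INSIG1 under 5 each and DHCR7 under 3. The others passed under at most 2.

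Leaving out each library in turn gave 3 to 8 members higher and 3 to 6 lower in si_CSNK2B, 2 to 7 and 1 to 3 in si_P300, and 0 to 0 between the siRNAs. All genes called numbered 2928 in si_CSNK2B without NC replicate 3 to 5166 without si_P300 replicate 1, 2191 to 3882 in si_P300 without the same libraries, and 0 to 0 between the siRNAs. Sterol medians were 0.14 to 0.19 in si_CSNK2B, 0.21 to 0.25 in si_P300 and -0.11 to 0.01 between the siRNAs. Fatty acid medians were 0.10 to 0.16, -0.15 to 0.28 and -0.10 to -0.03. CSNK2B was at -0.34 to -0.20 and EP300 at -0.37 to -0.22.

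Replicate numbers did not pair the libraries (correlations of deviations -0.29 to 0.06). With the replicate block, 3828 and 3012 genes were called, and PMVK (edgeR adjusted p = 0.0658) and FDPS (0.0589) in si_CSNK2B and ACLY (0.0958) in si_P300 no longer passed.

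With 3 libraries a group, changes smaller than the intervals given could not be told from 0 at this depth. FADS1 and FADS2 were too low for a firm statement.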
